A study of Homo sapiens with 8 samples.

Results

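The genes examined here are 47 genes of ribosome biogenesis and RNA polymerase I, out of 58051 genes in the count files. They were listed by name for what their products do in the nucleolus, in pre-rRNA processing or in the transcription of rRNA genes. The list uses no measured value, but it was chosen with earlier results of these data known. Each symbol matched 1 Ensembl gene. The list holds 9 genes of RNA polymerase I and its factors, 8 genes of snoRNP core proteins and abundant nucleolar proteins, 18 genes of the small subunit processome and 40S assembly, and 12 genes of 60S assembly. With a mean normalised count above 5, 44 of the 47 were tested, among 7550 genes tested in all. The other 3, LTV1, PWP2 and WDR75, had between 0 and 5 counts in each sample.

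RNA was sequenced from MDA-MB-231 (MDA231) cells, a human breast cancer line, in 3 groups: parental cells that were not modified (n = 2), SDHB KO cells (n = 3) and SDHB KO SDHA low cells (n = 3). SDHB and SDHA are subunits of respiratory complex II, the succinate dehydrogenase of mitochondria. SDHB KO cells were made with a TALEN construct against exon 1 of SDHB and selected with hygromycin. SDHB KO SDHA low cells are SDHB KO cells that also carry an shRNA plasmid against SDHA, selected with puromycin. All cells were harvested untreated and before confluence, at 70% of the surface. The samples are numbered as biological replicates, but it is not given whether they came from separately derived sublines or separate cultures, so the p-values measure the spread between these samples. A difference between sublines or selection drugs cannot be told apart from that of SDHB loss or SDHA knockdown.

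Ribosomes are assembled in the nucleolus, where RNA polymerase I transcribes the rRNA genes into a long precursor. Small nucleolar ribonucleoproteins (snoRNPs) methylate this precursor and convert uridines to pseudouridine, the small subunit processome folds and cuts the part that becomes 18S rRNA, and a separate set of factors assembles the 60S subunit around the remaining part. Growing cancer cells spend much of their transcription on this pathway. The libraries held polyadenylated RNA and the authors removed rRNA reads, so the precursor itself was not measured and the values below are mRNA levels of the factors.

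Promoter sequence, which the list did not use, was compared next. RefSeq promoters on GRCh38.p14, each 300 bases long with 250 before the start site and 50 from it onward, were matched for 40 of the 47 genes. The palindrome CACGTG, an E-box that basic helix-loop-helix factors are known to bind, was present in 15 of the 40 (37.5%), against 10.9% of the 6081 promoters of genes tested and 7.4% of all 27305 promoters. Its position was also narrow. Of 16 copies in these 15 genes, 14 (87.5%) began within 50 bases of the start site, against 37.6% of 753 copies in promoters of genes tested. Below are 30 bases around CACGTG, in capitals, for the 11 tested members in which it began within 50 bases of the start site and the promoter holds 12 bases on either side. All are written 5′ to 3′ as transcribed.
FBL, chr19:39846356-39846385, minus strand, from base 7 after the start: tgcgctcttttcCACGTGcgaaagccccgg
IMP4, chr2:130342900-130342929, plus strand, from base 16: ttctcccggaccCACGTGgaagcggcactc
WDR43, chr2:28894658-28894687, plus strand, from base 4: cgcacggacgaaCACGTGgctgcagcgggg
PNO1, chr2:68157885-68157914, plus strand, from base 10: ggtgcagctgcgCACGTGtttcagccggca
NOP14, chr4:2963374-2963403, minus strand, from base 16: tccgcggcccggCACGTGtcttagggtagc
BYSL, chr6:41921515-41921544, plus strand, from base 29: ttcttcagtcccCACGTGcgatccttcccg
RRP9, chr3:51941892-51941921, minus strand, from base -5: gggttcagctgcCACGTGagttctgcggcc
NAT10, chr11:34105602-34105631, plus strand, from base -15: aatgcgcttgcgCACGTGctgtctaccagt
UTP4, chr16:69132621-69132650, plus strand, from base -16: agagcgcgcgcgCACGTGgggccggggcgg
PES1, chr22:30591880-30591909, minus strand, from base 14: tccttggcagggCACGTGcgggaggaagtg
MRTO4, chr1:19251807-19251836, plus strand, from base 15: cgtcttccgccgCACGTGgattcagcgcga

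The flanks differ from gene to gene. By role, the letters were in 11 of 17 matched 40S genes, 3 of 10 matched 60S genes, 1 of 7 matched snoRNP and nucleolar genes and 0 of 6 matched genes of RNA polymerase I and its factors. The other 4 genes with CACGTG were NOP2, LTV1, PWP2 and UTP14A. CCGGAAG, searched on both strands, was in 35.0% of member promoters against 21.4% of those of genes tested. AAGATGGC was in 7.5% against 6.7% and TATAAA in 2.5% against 4.8%. A match describes letters and not a bound site.

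The 3 members that passed the test in a comparison, UBTF, NPM1 and HEATR1, had no CACGTG in these 300 bases. The 100 bases before their start sites are shown to set them beside the group above, with no part in capitals.
UBTF, chr17:44220883-44220982, minus strand: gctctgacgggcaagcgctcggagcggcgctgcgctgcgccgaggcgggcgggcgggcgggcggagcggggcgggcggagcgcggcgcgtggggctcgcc
NPM1, chr5:171387749-171387848, plus strand: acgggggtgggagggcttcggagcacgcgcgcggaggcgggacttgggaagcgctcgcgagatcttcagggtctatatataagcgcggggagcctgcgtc
HEATR1, chr1:236604517-236604616, minus strand: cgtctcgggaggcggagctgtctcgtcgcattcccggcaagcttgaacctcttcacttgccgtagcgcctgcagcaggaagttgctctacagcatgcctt

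Between 773042 and 1427141 reads per sample were counted on genes, so that 3 counts correspond to 2.102 to 3.881 CPM, the reads of a gene scaled to a common library size. Replicates differed by more than sampling noise (chi-squared per degree of freedom from 2.09 to 9.58), so no pair was 1 library deposited again. The share of reads with several alignments, which were not counted, was 10.2 to 10.9% in parental, 14.5 to 16.1% in SDHB KO and 9.72 to 12.3% in SDHB KO SDHA low samples. SDHB KO SDHA low replicate 2 was the deepest library, and leaving it out raised the genes called between SDHB KO and parental cells from 418 to 846. Of 8 markers of this line, AXL and LGALS1 were the highest, at means of 2351 and 2047 CPM. The lowest were ANXA1, CAV2 and S100A4, at 3.02, 5.04 and 8.43 CPM. The luminal markers ESR1 and PGR and the fibroblast markers COL1A2, COL3A1, DCN and LUM were at 0 in all 8 samples. The luminal markers KRT19 and GATA3 had counts in all 8, at means of 119 and 15.0 CPM. The summed levels were 5981 to 6672 CPM in parental, 5082 to 5484 CPM in SDHB KO and 4916 to 5653 CPM in SDHB KO SDHA low samples for the 8 line markers. Parental samples were thus the highest, and the part of this in the results below was not tested. Over all samples they were 111 to 161 CPM for 9 luminal markers, most of it KRT19, and 1.21 to 8.10 CPM for 6 fibroblast markers. SDHA was 74.0 and 91.6 CPM in parental cells, 148, 135 and 151 CPM in SDHB KO cells and 8.45, 12.7 and 17.8 CPM in SDHB KO SDHA low cells, and fell 10.97-fold between the last 2 groups (log2 fold change -3.46 ± 0.28 SE, adjusted p = 1.16e-07 by edgeR). SDHB had 0 to 4 counts in every sample, parental cells included. Its reads come from the 3′ end, away from the targeted exon, so they check nothing about the knockout.

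Levels are given as CPM scaled by the TMM method of edgeR. The kit yields reads from the 3′ end of each transcript, so levels were not divided by transcript length, and they still depend on how well each 3′ end is captured and aligned. On this scale the members were abundant mRNAs: their median level was 111 CPM against 32.4 CPM over all genes tested, a level above that of 78.1% of genes tested. IMP3, a U3 snoRNP protein that helps the U3 RNA to pair with the precursor, had the highest mean level of the 47 (1824 CPM). FBL, the methyltransferase of box C/D snoRNPs, followed at 1433 CPM and BOP1, a 60S factor of the PES1-BOP1-WDR12 complex, at 894 CPM. These 3 genes held 48.2% of the summed level of the members. At the other end, 9 tested members had means below 20 CPM, among them NOP58 (6.63 CPM), WDR12 (7.69 CPM) and GNL3 (9.16 CPM).

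Proteins that work in 1 complex did not have like mRNA levels by this measure. In the box C/D snoRNP, FBL was at 1433 CPM, NOP56 at 226 CPM and NOP58 at 6.63 CPM. In the PES1-BOP1-WDR12 complex the means were 157, 894 and 7.69 CPM. Level went with base composition of the 3′ end. Over the 47 members, the mean level had a rank correlation of 0.605 with the G and C content of the last 300 bases of the canonical transcript, and over 7532 genes tested it was 0.326. Genes are not independent replicates, and the coefficients are given without a test. 7 members had a near-identical copy of those 300 bases elsewhere in the genome (at least 95% over 100 bases or more): NPM1 (15 copies), MRTO4 (10), and NOP56, NHP2, GAR1, GNL3 and PWP2 (1 each). Reads that align to a copy as well are not counted, so the levels of these 7 are uncertain. PWP2, a small subunit processome protein, was at 0 counts in all 8 samples, and its copy is 99.7% identical.

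Summed over the 47 genes, the level was 8264 and 8759 CPM in parental cells, 9188, 7508 and 8921 CPM in SDHB KO cells and 8307, 9969 and 8048 CPM in SDHB KO SDHA low cells. The 3 groups overlapped, and the spread within a group was wider than the distance between group means. The groups overlapped in the sums of snoRNP, 40S and 60S genes too. RNA polymerase I and its factors summed to 607 to 649 CPM in parental cells, 603 to 746 CPM in SDHB KO cells and 673 to 789 CPM in SDHB KO SDHA low cells. All 3 SDHB KO SDHA low samples lay above both parental samples here, and overlapped SDHB KO samples. The 60S genes ranged from 1679 to 1817 CPM in parental cells, 1544 to 2040 CPM in SDHB KO cells and 1810 to 1957 CPM in SDHB KO SDHA low cells. IMP3, FBL and BOP1 weigh most in these sums, and none of them passed the test in any comparison.

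**Figure D1:**
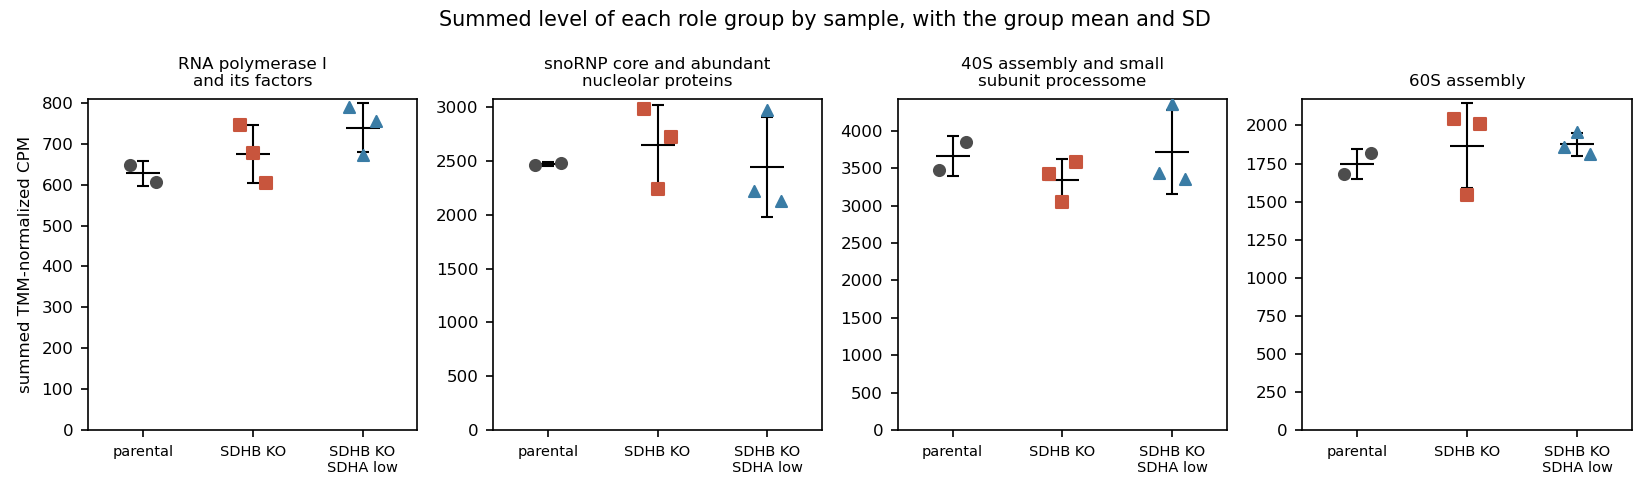
Summed CPM of the genes of each role in each sample, with the group mean and SD (n = 2 parental, 3 SDHB KO and 3 SDHB KO SDHA low). The groups overlap in most panels, and the 3 SDHB KO SDHA low samples lie above both parental samples for RNA polymerase I and its factors.

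SDHB KO and parental cells were compared to see which of the genes differ with loss of SDHB. UBTF, which binds rRNA gene promoters and keeps them open for RNA polymerase I, rose 2.20-fold. NPM1, an abundant chaperone of the granular part of the nucleolus, fell, and so did HEATR1, a subunit of the small subunit processome that is also needed for rRNA transcription. A lower level here can mean fewer cells with the mRNA or less of it in each cell, which bulk RNA cannot tell apart. These 3 of 44 tested members (6.82%) passed the threshold, an adjusted p below 0.1 over all genes tested, against 5.54% of all 7550 genes. Of the 3, 1 was higher and 2 were lower, against 3.14% of all genes called higher and 2.4% called lower. The median log2 fold change of the 44 was -0.13, with 19 above 0 (43.2%) and 25 below, and over all genes it was -7e-04, with 49.9% above 0. The smallest change called in any gene of this comparison was 0.62 on the log2 scale, and the 95% interval of the median member reached 0.57 to either side of its value.

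UBTF had 83.3 and 75.7 CPM in parental cells, 181, 186 and 159 CPM in SDHB KO cells and 171, 118 and 114 CPM in SDHB KO SDHA low cells. Both knockout groups lay above both parental samples, and SDHB KO SDHA low replicate 1 lay within the range of SDHB KO cells. The log2 fold change of SDHB KO against parental cells was 1.13 ± 0.26 SE (95% interval 0.60 to 1.67, adjusted p = 0.0226, edgeR quasi-likelihood test). The call was lost without either parental sample (adjusted p = 0.347 and 0.209), while the change stayed between 1.07 and 1.23 under all 17 alternatives. UBTF is on chromosome 17 (44205033 to 44221626, minus strand, ENSG00000108312), and no copy of its 3′ end was found elsewhere.

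NPM1 was at 420.0 and 236 CPM in parental cells, at 177, 135 and 145 CPM in SDHB KO cells, and at 151, 196 and 127 CPM in SDHB KO SDHA low cells. Every sample of both knockout groups lay below both parental samples. The parental samples stood further apart from each other than the samples of either knockout group. Between SDHB KO and parental cells the log2 fold change was -1.12 ± 0.26 SE (95% interval -1.65 to -0.58, adjusted p = 0.0253 by edgeR). Without parental replicate 1 it was -0.65, with an adjusted p of 0.581. The call was also lost without SDHB KO replicate 3 (adjusted p = 0.104, edgeR) and with the exchanged replicate block (adjusted p = 0.114, edgeR), which pairs samples by number with SDHB KO replicates 1 and 3 exchanged. NPM1 (chromosome 5, 171387116 to 171411810, plus strand, ENSG00000181163) is the member with the most copies of its 3′ end, up to 98.9% identical. The share of reads with several alignments was highest in SDHB KO samples, and its part in this result was not tested.

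HEATR1 rested on 20 and 28 counts per parental sample, between 2 and 14 per SDHB KO sample and between 11 and 20 per SDHB KO SDHA low sample. Its levels were 23.1 and 37.2 CPM in parental cells, 2.74, 15.6 and 8.63 CPM in SDHB KO cells and 21.7, 14.9 and 12.3 CPM in SDHB KO SDHA low cells. Both parental samples were above all others. The log2 fold change of SDHB KO against parental cells was -1.68 ± 0.53 SE (95% interval -2.77 to -0.59, adjusted p = 0.0907, edgeR). The call was lost in 7 of 16 alternatives, among them those with either parental sample left out, SDHB KO replicate 1 or 3 left out, and the threshold of 0.05. DESeq2 gave no adjusted p for this gene. HEATR1 is on chromosome 1 (236549005 to 236604516, minus strand, ENSG00000119285).

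Among the 44 tested members, the groups did not overlap in 24. In 12 of them (27.3%) every SDHB KO sample was above both parental samples, and in 12 (27.3%) every one was below, against 19.3% and 18.6% of all genes tested. An unadjusted p below 0.05 by edgeR was reached by 12 members (27.3%), against 17.5% of all genes. The members were more abundant than most genes and measured more precisely, with a median SE of 0.27 against 0.39 over all genes. The part of this in these shares was not tested. The 12 with every SDHB KO sample above were UBTF, TCOF1, NOP56, UTP4, NOP14, NOB1, NAT10, NOP2, PES1, RRS1, NOP16 and MRTO4. Those below were POLR1A, POLR1B, POLR1E, NOP58, NHP2, NPM1, RRP9, NOC4L, BYSL, HEATR1, IMP4 and RRP1. The first set holds 5 of the 12 60S genes, which had a median log2 fold change of 0.28, 8 of 12 above 0 and none called. The 40S genes had a median of -0.21, with 10 of 15 tested below 0 and only HEATR1 called.

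Within RNA polymerase I and its factors, UBTF and the 5 listed subunits lay on opposite sides of 0 in SDHB KO against parental cells. Of 13 other subunits and initiation factors of the enzyme, 8 were tested, with 4 above 0 and 4 below. The median log2 fold change of these 8 was -0.02 and none was called, against 5.54% of all genes tested. The summed level of the 13, in which the most abundant genes weigh most, was 1756 and 2048 CPM in parental and 2256 to 2946 CPM in SDHB KO samples. It was 1804 to 3381 CPM in SDHB KO SDHA low samples. POLR1A and POLR1B, the 2 largest subunits, had log2 fold changes of -0.20 ± 0.25 SE and -0.44 ± 0.50 SE in SDHB KO against parental cells. POLR1C and POLR1D, which RNA polymerase III also contains, had -0.34 ± 0.28 SE and -0.22 ± 0.32 SE. POLR1E, a subunit of the dimer that assists initiation and elongation, had -0.56 ± 0.29 SE. All 5 were below 0 under every alternative run, and none passed the test. POLR1E was 62.5 and 59.7 CPM in parental cells, 42.4, 44.5 and 37.8 CPM in SDHB KO cells and 49.5, 70.9 and 66.9 CPM in SDHB KO SDHA low cells, so that the SDHB KO samples were lowest without overlap. Its interval against parental cells, -1.16 to 0.04, included 0 (adjusted p = 0.327, edgeR). RRN3, which makes the polymerase ready to initiate, had 21.98 and 13.3 CPM in parental cells and 7.55 to 13.3 CPM in SDHB KO cells, with a log2 fold change of -0.68 ± 0.55 SE.

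TCOF1, the nucleolar scaffold treacle, was on the side of UBTF. It had 77.5 and 73.0 CPM in parental cells, 137, 103 and 110 CPM in SDHB KO cells and 104, 70.1 and 62.4 CPM in SDHB KO SDHA low cells. The SDHB KO samples were above the parental ones, and 1 SDHB KO SDHA low sample overlapped them. Its log2 fold change in SDHB KO against parental cells was 0.63 ± 0.27 SE, with an adjusted p of 0.226 by edgeR. NOLC1, a nucleolar phosphoprotein that accompanies snoRNPs, had -0.22 ± 0.24 SE.

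Among snoRNP and abundant nucleolar proteins, FBL had 1100 and 1305 CPM in parental cells, 1896, 1107 and 1679 CPM in SDHB KO cells and 1249, 1983 and 1148 CPM in SDHB KO SDHA low cells. The samples of the 3 groups overlapped, and the log2 fold change of SDHB KO against parental cells was 0.38 ± 0.25 SE. NOP58 was the second lowest member by fold change (-1.28 ± 0.68 SE), on 16.2 and 6.64 CPM in parental cells, 4.10, 3.34 and 6.47 CPM in SDHB KO cells and 8.45, 4.48 and 3.34 CPM in SDHB KO SDHA low cells. Its interval ran from -2.69 to 0.13 and it did not pass the test (adjusted p = 0.339, edgeR). NCL, or nucleolin, had -0.32 ± 0.28 SE. The H/ACA proteins DKC1, the pseudouridine synthase, GAR1 and NHP2 had 0.20, 0.54 and -0.45, none of them called.

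In the 40S path, IMP3 was at 1672 and 2014 CPM in parental cells, 1676, 1479 and 1902 CPM in SDHB KO cells and 1687, 2669 and 1494 CPM in SDHB KO SDHA low cells. The groups overlapped, and its log2 fold changes in the 3 comparisons lay between -0.13 and 0.21. Its partner IMP4 had 184 and 220.4 CPM in parental cells, 151, 96.7 and 146 CPM in SDHB KO cells and 162, 148 and 147 CPM in SDHB KO SDHA low cells. Both parental samples were the highest, with a log2 fold change of -0.63 ± 0.24 SE and an adjusted p of 0.158 by edgeR. NAT10, which acetylates cytidines of 18S rRNA, stood at 0.62 ± 0.26 SE and DDX21, an RNA helicase, at -0.67 ± 0.29 SE, with adjusted p of 0.217 and 0.218 by edgeR.

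In the 60S path, RRS1, which helps to place the 5S particle, had 32.4 and 25.2 CPM in parental cells, 52.0, 55.6 and 50.7 CPM in SDHB KO cells and 44.7, 49.2 and 55.7 CPM in SDHB KO SDHA low cells. Both knockout groups were above the parental samples, with log2 fold changes of 0.86 ± 0.32 SE and 0.78 ± 0.31 SE and adjusted p of 0.143 and 0.296 by edgeR. PES1 had 104 and 105 CPM in parental cells, 190.2, 113 and 208 CPM in SDHB KO cells, and 146, 283 and 105 CPM in SDHB KO SDHA low cells, with 0.71 ± 0.34 SE for SDHB KO against parental cells. The lowest SDHB KO SDHA low sample lay between the parental ones. BOP1 had 891 and 1029 CPM in parental cells, 918, 678 and 985 CPM in SDHB KO cells and 815, 1014 and 826 CPM in SDHB KO SDHA low cells. Its SD was the lowest of the 3 abundant members in each group, but so was its mean, and the SD was not scaled to the mean. The interval of BOP1 for SDHB KO against parental cells ran from -0.59 to 0.28.

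The SDHB KO SDHA low samples were set against the SDHB KO samples to see which genes differ with knockdown of SDHA when SDHB is already absent. No member passed the test, against 1.51% of all genes tested (114 of 7550, 0.318% higher and 1.19% lower). At an unadjusted p below 0.05 there were 5 members (11.4%) by edgeR, against 12.1% of all genes, and DESeq2 called 0. The samples of the groups did not overlap for 4 members with SDHB KO SDHA low cells above (9.1%, against 8.70% of all genes) and for 3 with them below (6.8%, against 8.69%). The median log2 fold change of the members was 0.07, with 27 above 0 and 17 below, against 51.1% and 48.9% of all genes, and the largest in size was 0.80. The smallest change called in any gene of this comparison was 0.66, and the interval of the median member reached 0.50 to either side.

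The 5 RNA polymerase I subunits among the members all had a log2 fold change above 0 here: POLR1A 0.35, POLR1B 0.30, POLR1C 0.61, POLR1D 0.56 and POLR1E 0.60. Of 8 tested other subunits and initiation factors, 4 were above 0 and 4 below, with a median of -0.03. The values of the 5 share the SDHB KO samples with those of SDHB KO against parental cells. A value below 0 there and one above 0 here are therefore not independent. POLR1C had 102 and 122 CPM in parental cells, 112, 83.4 and 70.1 CPM in SDHB KO cells and 151, 90.3 and 165 CPM in SDHB KO SDHA low cells. Its groups overlapped, and the interval of 0.08 to 1.13 came with an adjusted p of 0.328 by edgeR. Without SDHB KO SDHA low replicate 2 its change was 0.82 and passed the threshold (adjusted p = 0.0415, edgeR). POLR1B was at -0.04 in 1 alternative and above 0 in the others.

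HEATR1 had the largest value above 0 (0.80 ± 0.50 SE, interval -0.24 to 1.84). The 3 lowest were WDR43, a small subunit processome protein (-0.78 ± 0.40 SE), GNL3, the GTPase nucleostemin (-0.75 ± 0.54 SE), and NOP2, which methylates a cytosine of 28S rRNA (-0.62 ± 0.23 SE). NOP2 had 92.6 and 88.9 CPM in parental cells, 157, 111 and 159 CPM in SDHB KO cells and 70.0, 99.98 and 107 CPM in SDHB KO SDHA low cells. The 3 SDHB KO samples were above the samples of both other groups, and its adjusted p of 0.261 was the lowest of the members in this comparison (edgeR). WDR43 had 33.6 and 21.2 CPM in parental cells, 19.2, 23.3 and 22.7 CPM in SDHB KO cells and 13.3, 9.70 and 15.6 CPM in SDHB KO SDHA low cells, which were below all others. GNL3 had 12.7 and 6.64 CPM in parental cells, 8.21, 15.6 and 9.71 CPM in SDHB KO cells and 9.65, 5.22 and 5.57 CPM in SDHB KO SDHA low cells, and its groups overlapped. UBTF and TCOF1 had -0.39 ± 0.21 SE and -0.57 ± 0.24 SE, neither of them called. NPM1 had 0.07 ± 0.24 SE, with an interval from -0.42 to 0.56.

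SDHB KO SDHA low and parental cells were compared last. NPM1 was the 1 member of 44 called (2.27%, against 0.914% of all genes tested, 69 of 7550, and 0.689% called lower), with a log2 fold change of -1.05 ± 0.25 SE, 2.07-fold lower in SDHB KO SDHA low cells (adjusted p = 0.0837, edgeR). The call was lost in 10 of 17 alternatives, and without parental replicate 1 the change was -0.58. The parental samples serve in both comparisons of NPM1, so the 2 results are not independent. In 9 members (20.5%, against 15.2% of all genes) the SDHB KO SDHA low samples were all above the parental ones and in 8 (18.2%, against 15.5%) all below. An unadjusted p below 0.05 by edgeR was reached by 10 members (22.7%), against 12.3% of all genes. The median SE was 0.27 for the members against 0.39 over all genes, and its part in these shares was not tested. The median log2 fold change of the members was 0.02, with 23 above 0 and 21 below, against 51.4% and 48.6% of all genes.

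Of the others, NOB1, the endonuclease that makes the 3′ end of 18S rRNA, had the highest log2 fold change (0.82 ± 0.23 SE, adjusted p = 0.138 by edgeR). It had 109.9 and 108.9 CPM in parental cells, 127, 157 and 168 CPM in SDHB KO cells and 196, 205 and 179 CPM in SDHB KO SDHA low cells. The 3 groups were in that order without overlap. DESeq2 called it in this comparison. UBTF had 0.75 ± 0.26 SE against parental cells and did not pass the test (adjusted p = 0.207, edgeR). WDR43 and NOP58 had the lowest values, at -1.12 ± 0.43 SE and -1.11 ± 0.65 SE. RRS1 and PES1 each had 0.78.

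A single test for any difference among the 3 groups called 330 of 7550 genes (4.37%). Of the members it called NPM1 (adjusted p = 0.0240, edgeR) and UBTF (adjusted p = 0.0431, edgeR). HEATR1 had an adjusted p of 0.166 by edgeR in this test and NOB1 0.120.

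The promoter feature was set beside these changes. In SDHB KO against parental cells, the 13 tested members with CACGTG had a median log2 fold change of 0.26, with 8 above 0 and 5 below, and the 24 matched members without it had -0.16, with 9 above 0 and 15 below. In SDHB KO SDHA low relative to SDHB KO cells the medians were 0.05 and 0.09, and against parental cells 0.03 and -0.08. Genes are not independent replicates, no interval was computed for these medians, and the difference between them was not tested. Members with the letters went both ways, from IMP4 at -0.63 to PES1 at 0.71 in SDHB KO against parental cells.

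Of 145 further genes of the pathway, 122 passed the minimum. In SDHB KO against parental cells 1 of them was called, in SDHB KO SDHA low relative to SDHB KO cells 0 were called, and relative to parental cells 2. These are 0.82%, 0% and 1.64% of the 122, against 5.54%, 1.51% and 0.914% of all genes tested. DESeq2 called 4 (EMG1, MAX, SNHG32 and ZFAS1) of the 61 to which it gave an adjusted p in the first comparison, 0 of 85 in the second and 2 of 75 in the third. Over all genes DESeq2 called 394, 128 and 79, and its counts have another denominator than the edgeR shares. By unadjusted p below 0.05 in edgeR, the further genes numbered 18, 15 and 17 (14.8%, 12.3% and 13.9%), against 17.5%, 12.1% and 12.3% of all genes tested. The gene called first was ZFAS1, a host gene of small nucleolar RNAs, at 99.5 and 55.8 CPM in parental cells, 23.3, 36.7 and 27.0 CPM in SDHB KO cells and 24.1, 31.3 and 50.1 CPM in SDHB KO SDHA low cells. Both parental samples were above all others, and the log2 fold change was -1.42 ± 0.36 SE (adjusted p = 0.0363, edgeR). Without parental replicate 1 its adjusted p was 0.581, and the call was also lost without SDHB KO replicate 1 or 3.

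TBL3, a small subunit processome protein, had 89.1 and 84.96 CPM in parental cells, 47.9, 57.8 and 37.8 CPM in SDHB KO cells and 45.9, 30.6 and 32.3 CPM in SDHB KO SDHA low cells. NSA2, a 60S assembly factor, had 64.8 and 39.8 CPM in parental cells, 38.3, 32.2 and 22.7 CPM in SDHB KO cells and 19.3, 16.4 and 15.6 CPM in SDHB KO SDHA low cells. For NSA2 the 3 groups did not overlap, with parental cells highest and SDHB KO SDHA low cells lowest, and for TBL3 both parental samples were above all others. Both fell in SDHB KO SDHA low relative to parental cells, with log2 fold changes of -1.28 ± 0.29 SE and -1.62 ± 0.37 SE (adjusted p = 0.0702 and 0.0696, edgeR), and both passed the test for any difference (adjusted p = 0.0431 each). Against parental cells the call of TBL3 was lost in 8 of 17 alternatives and that of NSA2 in 6, among them the threshold of 0.05 and the replicate block. Without parental replicate 1 the adjusted p by edgeR were 0.819 and 0.873, without SDHB KO SDHA low replicate 1 they were 0.126 and 0.172, and TBL3 also lost its call without parental replicate 2 (0.223) or SDHB KO replicate 1 (0.104).

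By list, in SDHB KO against parental cells, the median log2 fold change was -0.02 for 8 tested of 13 other RNA polymerase I subunits and initiation factors. It was -0.04 for 36 of 45 other 40S genes, 0.08 for 41 of 45 other 60S genes, -0.09 for 13 of 15 RNA exosome genes, 0.23 for 10 of 12 regulators of rRNA gene transcription and -0.40 for 14 of 15 snoRNA host genes. The host genes were the list furthest from 0 of the 6, with 11 of 14 below 0, against 50.1% of all genes tested. At an unadjusted p below 0.05 by edgeR there were 5 of the 14, against 17.5% of all genes. ZFAS1 was the 1 called of the 14, against 5.54% of all genes. Their summed level was 1600.0 and 1195 CPM in parental cells, 1028 to 1257 CPM in SDHB KO cells and 1174 to 1260 CPM in SDHB KO SDHA low cells. These groups overlapped, and the higher parental value belonged to the sample that also had the highest NPM1. In SDHB KO SDHA low relative to SDHB KO cells the medians of the 6 lists, in the same order, were -0.03, 0.06, -0.12, 0.15, 0.35 and 0.25, with no gene called in any of them. Against parental cells they were -0.18, 0.05, 0.08, 0.11, 0.37 and -0.35, with TBL3 and NSA2 called.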

How the data were processed

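The authors prepared 3′ end libraries (Lexogen QuantSeq) from 8 samples, trimmed reads with Trimmomatic, removed rRNA and mitochondrial reads, aligned with STAR 2.5.2b to GRCh38 and deposited raw read counts per gene. They also deposited normalized counts, a signal made with DESeq2, used here only to check which raw table each matches. Those of SDHB KO replicates 1 and 3 matched each other's raw counts. The raw counts were used as assigned by their own samples.

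The members and lists were chosen with earlier results of these data known. Genes with a mean normalized count above 5 were tested with the quasi-likelihood test of edgeR 4.0.16 in R 4.3.3 (TMM scaling, 3 groups in 1 fit of 8 samples, 5 residual degrees of freedom, Benjamini-Hochberg adjustment over 7550 genes, threshold 0.1). The fit was tested on data simulated with the same spread for every gene and sample. That test does not cover the unequal spread between the real replicates. The biological coefficient of variation was 21.5%. Errors are SE for fold changes and SD for levels. Alternatives were DESeq2 1.42.0, its size factors, other filters, a threshold of 0.05, only the 2 groups compared, a replicate block and each sample left out. A GC correction and an exchanged block were added after seeing the data. Reads not assigned to a gene (18.8 to 28.6% of a file) stayed out of library sizes, and counting error sets a limit of 3 counts below which a gene cannot be told from 0.

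Members are described in full where they were called, had 1 of the 3 highest or 3 lowest log2 fold changes of a comparison, or had the highest mean level of their role. Any other gene named was chosen after its values were seen. The lists were the 4 roles, 6 further lists of pathway genes and 3 of cell markers. Copies of 3′ ends were searched with blastn 2.17.0 using canonical transcripts of GENCODE 44. Gene positions are from GENCODE 44 and promoters from RefSeq, both on GRCh38.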

Additional observations from a re-analysis of the deposited data

How the results depend on the processing

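No member changed direction while called. In SDHB KO against parental cells the genes called, 418, became 171 at a threshold of 0.05, 777 with only the 2 groups, 199 with a replicate block, 94 with the exchanged block and 0 to 846 with each sample left out, with 0 without parental replicate 1. For SDHB KO SDHA low relative to SDHB KO cells, 114 became 64 at 0.05, 64 with only the 2 groups, 59 with the replicate block, 49 with the exchanged block and 39 to 375 with each sample left out. For SDHB KO SDHA low relative to parental cells, 69 became 152 with no filter, 13 at 0.05, 7 with only the 2 groups, 12 with the replicate block, 8 with the exchanged block and 4 to 173 with each sample left out. For any difference, 330 became 518 with no filter, 190 at 0.05, 164 with the replicate block, 103 with the exchanged block and 42 to 922 with each sample left out.

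The members called between SDHB KO and parental cells, 3, became 6 with only the 2 groups (adding IMP4, NOP16 and PES1), 5 with the GC correction (adding IMP4 and RRS1), 1 with the exchanged block and 0 to 8 with each sample left out. For SDHB KO SDHA low relative to SDHB KO cells they were 0, and 0 to 1 with each sample left out. For SDHB KO SDHA low relative to parental cells, 1 became 2 by DESeq2, 0 at 0.05, with only the 2 groups, with the replicate block and with the exchanged block, and 0 to 3 with each sample left out. For any difference, 2 became 3 by DESeq2, 1 with the replicate block, 0 with the exchanged block and 0 to 8 with each sample left out. Over all genes, the GC correction called 510 between SDHB KO and parental cells, against 418 in the main fit. DESeq2 called 394, 128 and 79 of all genes in the 3 comparisons and 348 for any difference. The causes of these shifts were not tested. The members' median log2 fold change stayed within -0.18 to -0.05, -0.02 to 0.10 and -0.05 to 0.04 in the 3 comparisons.

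Same-numbered samples did not deviate together (mean correlation -0.07 over 7 pairs, from -0.28 to 0.10), so the replicate block pairs samples by number only. With 1 parental sample left, that sample is assumed to vary like the other groups. With 2 parental samples and 773042 to 1427141 reads, members under 20 CPM rest on few counts. The unadjusted interval of the median member reached about 0.57 on the log2 scale to either side in comparisons with parental cells. Larger changes could still miss the adjusted threshold. RRS1 at 0.86 in SDHB KO against parental cells was not called (adjusted p = 0.143, edgeR). Nor was NOB1 at 0.82 in SDHB KO SDHA low relative to parental cells (adjusted p = 0.138, edgeR). The smallest changes called in any gene of these comparisons were 0.62 and 0.75, in the same order.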
